A study of Solanum lycopersicum with 6 samples.

Results

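The photosystem I antenna of the tomato fruit wall was followed through 6 gene loci, which were taken from a list of loci for chlorophyll a/b-binding proteins of the Lhca type. They were matched by identifier and not picked by a value, though the list was drawn up with earlier results of these data known. All 6 were among the 35768 gene models of the table. Shoulder pericarp, the part of the fruit wall next to the stalk, had been collected 30 days post anthesis (DPA) from greenhouse plants of Solanum lycopersicum cultivar Ailsa Craig. The 3 wild type (WT) libraries had no edited gene, and the 3 slgols2 libraries came from CRISPR-Cas9 knock-out plants of the same cultivar, stage and tissue. The edited allele, the number of mutant lines and the number of plants behind a library are not stated in the labels, so replicate error here is the scatter of 3 libraries per genotype and may be technical only. The values were FPKM, fragment numbers divided by the length of the gene model and by the depth of the library.

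Lhca proteins bind chlorophyll and carotenoids and form a crescent along one side of the photosystem I core, to which they pass the light energy they absorb. They are encoded in the nucleus and imported into chloroplasts, which a green tomato fruit carries in its outer wall, most densely in the shoulder of cultivars with dark green shoulders. During ripening chloroplasts turn into chromoplasts and the photosynthetic apparatus is lost. The table and the reference (RefSeq assembly SLM_r2.1) pair none of the 6 identifiers with a gene name, so which Lhca protein each locus encodes is not stated, and no sequence is shown.

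The depth behind the values lay between 15593387 and 17941974 fragments per library. The slgols2 replicate 3 library stood apart from the other slgols2 libraries: across tested gene models its log2(FPKM + 1) correlated at 0.849 and 0.869 with slgols2 replicates 1 and 2, which correlated with each other at 0.957, and at 0.878 to 0.903 with the WT libraries (correlations across genes, which are not independent replicates). Fitted changes of the antenna loci and medians of the photosynthesis lists below are therefore given with and without it. With the WT libraries slgols2 replicate 1 correlated at 0.858 to 0.888 and replicate 2 at 0.883 to 0.914. These values do not tell which of the slgols2 libraries is unusual. With all libraries the log2 changes of the tested antenna loci, given below, ran from -1.31 to -0.24. Without slgols2 replicate 1 instead they ran from -1.67 to -0.74, and without replicate 2 from -1.70 to -0.53. The edited gene is not identified here, so the knock-out labels were not checked on its level. Apart from the epidermis and cuticle list below, no marker list of the fruit wall was used, and the tissue label was not checked.

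The antenna transcripts were abundant in both genotypes, and what differed most was a single mutant library. The summed FPKM of the 6 loci was 1225, 1554 and 1804 in WT replicates 1, 2 and 3. It was 1685, 1374 and 435 in slgols2 replicates 1, 2 and 3. Replicates 1 and 2 of slgols2 thus lay inside the WT range, and replicate 3 stood at 0.285 of the WT mean. The group means were 1528 ± 291 FPKM for WT and 1165 ± 651 for slgols2 (SD, n = 3 each), a difference of -363 FPKM that became 1.63 FPKM without slgols2 replicate 3. In a bulk sample, fewer cells with green plastids and less antenna RNA per cell cannot be told apart.

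**Figure D1:**
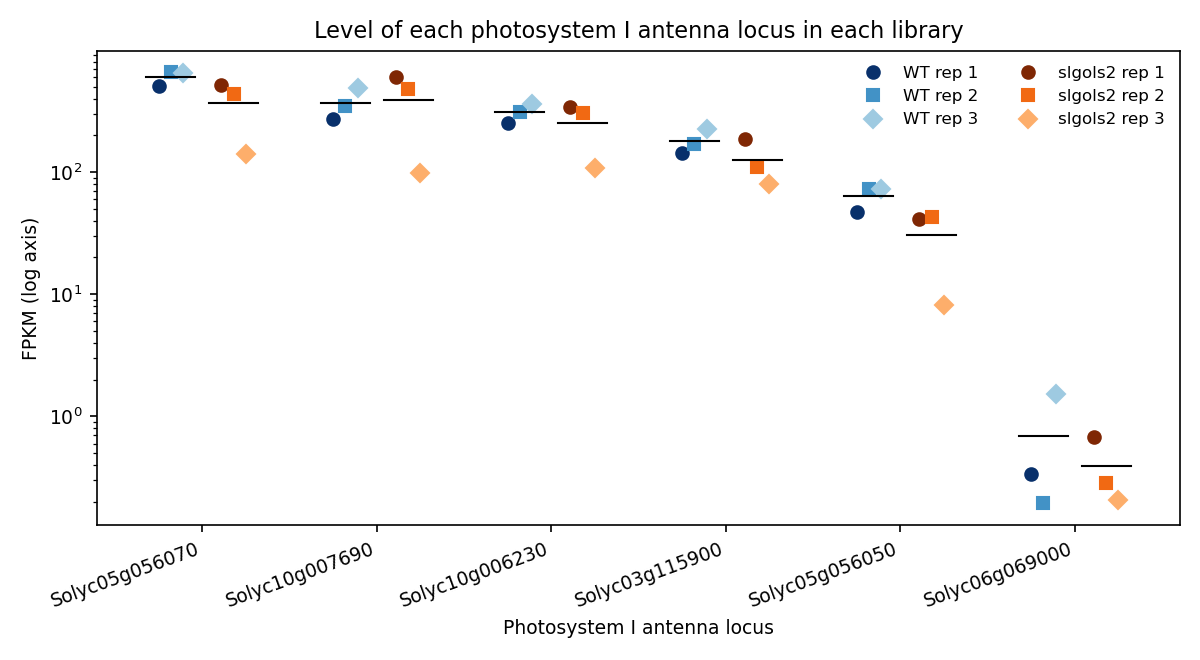
FPKM (log axis) of the 6 photosystem I antenna loci in the 3 WT (blue) and 3 slgols2 (orange) libraries; each point is 1 library and each black line the arithmetic mean of 3. For the 5 upper loci the slgols2 replicate 3 point is the lowest of the 6, and Solyc06g069000 lies below 2 FPKM in every library.

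The loci differed widely in level, with 5 high and 1 close to the limit of use. FPKM is per length of the gene model, and the recovered lengths ran from 1116 bases for Solyc05g056070 to 3706 for Solyc10g006230. By recovered fragments Solyc10g006230 was the higher of these 2, at 16424, 19805 and 20935 in WT replicates 1, 2 and 3. Solyc05g056070 had 9840, 12609 and 11312 fragments there. Where the authors' lengths include introns, FPKM understates loci with long introns. The order given here is therefore an order of FPKM, not of fragments. In WT the means ran from Solyc05g056070 at 604 through Solyc10g007690 at 371, Solyc10g006230 at 309, Solyc03g115900 at 180.0 and Solyc05g056050 at 63.9 to Solyc06g069000 at 0.688 FPKM. Of the neighbours in this order, Solyc10g007690 and Solyc10g006230 had overlapping WT ranges, while in the other 4 neighbouring pairs every WT value of the higher locus exceeded every WT value of the lower. In slgols2 Solyc10g007690 had the highest mean, at 392 FPKM, ahead of Solyc05g056070 at 364 FPKM, but the order held in only 2 of the 3 libraries and the ranges overlapped. Measured against all gene models of a library, Solyc05g056070 ranked between 47 and 90 in the WT libraries and slgols2 replicates 1 and 2, and ranked 347 in slgols2 replicate 3.

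The chromosome 5 loci, Solyc05g056050 and Solyc05g056070, lie close together by identifier and had the lowest fitted changes of the family. Solyc05g056050.3 stood at 46.7, 72.3 and 72.8 FPKM in WT replicates 1, 2 and 3 and at 41.2, 42.8 and 8.16 FPKM in slgols2 replicates 1, 2 and 3. All 3 slgols2 values were below all 3 WT values, though slgols2 replicates 1 and 2 lay just under WT replicate 1. The group means were 63.9 ± 14.9 and 30.7 ± 19.6 FPKM (SD, n = 3 each), resting on between 283 and 2647 recovered fragments. On the log2(FPKM + 1) scale the change was -1.31 with a standard error of 0.63 and a 95% interval from -2.84 to 0.22, which did not pass the threshold (limma, adjusted p = 0.479 over all gene models tested). Without slgols2 replicate 3 it was -0.57, with 0.25 as its standard error (limma adjusted p = 0.240).

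Solyc05g056070.3, the locus with the highest FPKM in WT, stood at 505, 656 and 650.0 FPKM in WT replicates 1, 2 and 3. Its slgols2 values were 512, 439 and 142 FPKM in replicates 1, 2 and 3. The groups overlapped, since slgols2 replicate 1 lay above WT replicate 1. The log2 change was -0.92 with a standard error of 0.50 and a 95% interval from -2.13 to 0.30 (limma adjusted p = 0.534), and -0.34 (standard error 0.21) without slgols2 replicate 3 (limma adjusted p = 0.381). Related copies that lie near each other can share reads, and how reads were assigned is not given in the sources used here, so the levels of these neighbours are uncertain one by one. Their joint FPKM, which such sharing between the 2 of them would affect less, was 552, 728 and 723 in WT and 554, 482 and 149.8 in slgols2 (replicates 1, 2 and 3 in each).

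The chromosome 10 loci had higher values than WT replicate 1 in slgols2 replicates 1 and 2 and low values in slgols2 replicate 3. Solyc10g007690.3 stood at 274, 347 and 492 FPKM in WT and at 601, 477 and 97.4 FPKM in slgols2 (replicates 1, 2 and 3 in each). It thus had both its highest and its lowest value in a slgols2 library, a 6.17-fold span. Its mean FPKM was higher in slgols2, at 392 ± 262 against 371 ± 111 in WT (SD, n = 3 each), whereas its mean of log2(FPKM + 1) was lower, with a change of -0.24, a standard error of 0.70 and a 95% interval from -1.94 to 1.45 (limma adjusted p = 0.919). Without slgols2 replicate 3 the direction turned, to a log2 change of 0.57, with 0.30 as its standard error (limma adjusted p = 0.314).

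Solyc10g006230.3 differed little outside slgols2 replicate 3. It stood at 254, 310.1 and 362 FPKM in WT and at 343, 304 and 108 FPKM in slgols2 (replicates 1, 2 and 3 in each). Replicates 1 and 2 of slgols2 fell inside the WT range. The log2 change was -0.45 with a standard error of 0.47 and a 95% interval from -1.57 to 0.68 (limma adjusted p = 0.740). It was 0.078 with a standard error of 0.22 without slgols2 replicate 3 (limma adjusted p = 0.852).

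The chromosome 3 locus, Solyc03g115900.3, was, of the 5 well-measured loci, the least low in slgols2 replicate 3. It stood at 145, 169.6 and 226 FPKM in WT and at 187, 111 and 79.9 FPKM in slgols2 (replicates 1, 2 and 3 in each). Replicates 2 and 3 of slgols2 were below every WT value and replicate 1 was not. The log2 change was -0.58 with a standard error of 0.36 and a 95% interval from -1.44 to 0.28 (limma adjusted p = 0.574), and -0.30 with a standard error of 0.32 without slgols2 replicate 3 (limma adjusted p = 0.603).

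The chromosome 6 locus, Solyc06g069000.3, was barely detected. It stood at 0.336, 0.195 and 1.53 FPKM in WT and at 0.677, 0.287 and 0.205 FPKM in slgols2 (replicates 1, 2 and 3 in each), and was not tested because its mean over the libraries was under 1 FPKM. These values correspond to 14, 8 and 57 recovered fragments in WT and 29, 11 and 8 in slgols2. The 57 fragments of WT replicate 3 have an exact Poisson 95% interval of 43.2 to 73.9, and the 8 of WT replicate 2 one of 3.45 to 15.8, both for counting error only. The groups overlapped.

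Of the 6 loci, 5 passed the filter on low values and none of the 5 passed the threshold (limma with Benjamini-Hochberg adjustment), against 36 called among 15695 gene models tested, or 0.229%. None had an unadjusted p under 0.05 either, which 1877 gene models, or 12%, had. Without slgols2 replicate 3 again none of the 5 passed, against 279 gene models, or 1.78%. The lowest unadjusted limma p among the 5 was 0.0812, for Solyc05g056050. Groups that did not overlap were found at 1 of the 5 loci, a share close to the 19.2% of gene models tested. The intervals are wide, and for each of the 5 loci they include both no change and a halved level.

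**Figure D2:**
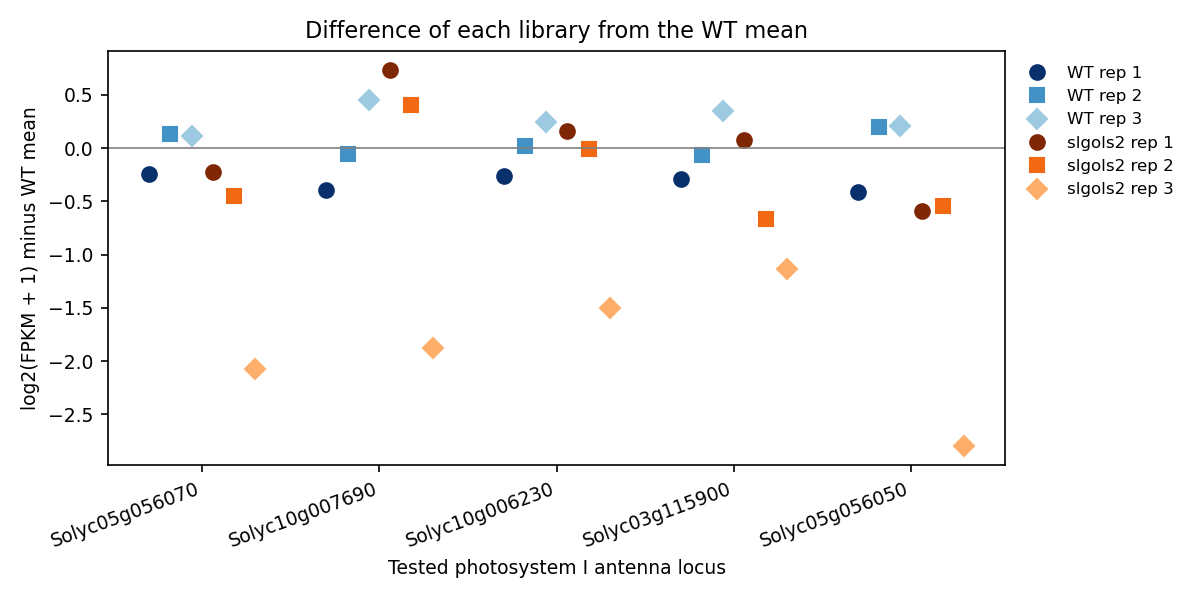
log2(FPKM + 1) of each of the 5 tested loci in each library minus the mean of the 3 WT libraries (grey line at 0); each point is 1 library. The slgols2 replicate 3 points lie between -1.14 and -2.80, below all others, while those of slgols2 replicates 1 and 2 lie between -0.67 and 0.74.

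Taken library by library, slgols2 replicate 3 was below the lowest WT value at all 5 tested loci, where 30.3% of gene models tested were. In slgols2 replicate 2 this held for 3 of the 5, against 30.7% of gene models, and in slgols2 replicate 1 for 1 of the 5, against 38.5%. On the log2(FPKM + 1) scale, and taking the WT mean as 0, slgols2 replicate 3 stood at -2.80 for Solyc05g056050, -2.07 for Solyc05g056070, -1.87 for Solyc10g007690, -1.50 for Solyc10g006230 and -1.14 for Solyc03g115900. Of all gene models tested, 0.376% lay as low as or lower than the first of these in that library, and 4.33% as low as or lower than the last. The 5 loci therefore all stood in the lowest part of that library's distribution, but at depths that differed among them. Within WT the libraries were not level either: replicate 1 had the lowest WT value at all 5 loci. That library held a single gene model that took 13.1% of its FPKM sum, and after median-ratio scaling its antenna sum was still the lowest of WT, at 1238 against 1498 and 1807 FPKM.

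Markers of heat shock, ripening, seed and epidermis also differed between libraries, in lists of loci recalled for their function. The heat shock list (12 loci, 11 tested, 1 at 0 in all libraries) summed to between 610 and 937 FPKM in WT. It reached 19813 FPKM in slgols2 replicate 1 and 13167 in replicate 2 but 535 in replicate 3, so it was high in the mutant libraries whose antenna sum lay inside the WT range. The list median of log2(FPKM + 1) minus the WT mean was 3.52, 3.24 and 0.41 in slgols2 replicates 1, 2 and 3. In replicate 3 the sum was thus below WT while the median was above the WT mean. The ripening list (9 loci, 5 tested, 1 at 0 in all libraries) summed to between 155 and 474 FPKM in WT and between 175 and 455 in slgols2, where replicate 3 was highest. The seed list (10 loci, 6 tested, 1 at 0 in all libraries) summed to between 9.95 and 43.8 FPKM in WT and was at 5.94 FPKM in slgols2 replicate 3, within a slgols2 range of 1.66 to 77.1. The epidermis and cuticle list (7 loci, 6 tested, 1 at 0 in all libraries) summed to between 960 and 2089 FPKM in WT and between 358 and 1131 in slgols2, with the highest of these in replicate 3. No locus of these 4 lists passed the threshold (limma adjusted p of 0.273 or more), while without slgols2 replicate 3 it was passed by 7 of the 11 heat shock loci and 2 of the 6 epidermis and cuticle loci. The part of these differences in the antenna values was not tested.

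The makeup of the antenna FPKM was set out as shares, which do not depend on its sum. The shares do depend on the lengths of the gene models, so they are not shares of fragments. As a share of the summed FPKM of the 6 loci, Solyc05g056070 made up 41.3%, 42.2% and 36.0% in WT and 30.4%, 32.0% and 32.6% in slgols2 (replicates 1, 2 and 3 in each). Its neighbour Solyc05g056050 made up between 3.82% and 4.65% in WT and between 1.88% and 3.12% in slgols2. Together the chromosome 5 loci held 44.0% ± 3.51 in WT and 34.1% ± 1.16 in slgols2 (SD, n = 3 each). For each of the 2 loci the groups did not overlap, from which the same follows for their sum. Levels did not overlap at 19.2% of gene models tested, and no such background was computed for shares. In the summed share slgols2 replicate 3, at 34.4%, lay between the other slgols2 libraries.

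Different loci stood above their WT share in different mutant libraries. In slgols2 replicate 1 the chromosome 5 loci summed to 554 FPKM, inside the WT range of 552 to 728. The other loci summed there to 1131 FPKM, above the WT range of 673 to 1081. In slgols2 replicates 2 and 3 the chromosome 5 sum was below WT, at 482 and 149.8 FPKM, and the other loci summed to 891 and 285 FPKM. Solyc10g007690 made up 35.7% and 34.7% in slgols2 replicates 1 and 2, above the WT range of 22.3% to 27.3%, but 22.4% in replicate 3. Solyc03g115900 made up 18.4% in slgols2 replicate 3, above the WT range of 10.9% to 12.5%, and 11.1% and 8.08% in replicates 1 and 2. Solyc10g006230 made up between 19.9% and 20.7% in WT and 20.3%, 22.1% and 24.7% in slgols2 replicates 1, 2 and 3. Shares add up to a whole, so a lower share of one locus raises the others, and they were looked at after the levels were known. No test is given for them, and with 3 against 3 libraries an exact permutation test cannot go below 0.10.

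**Figure D3:**
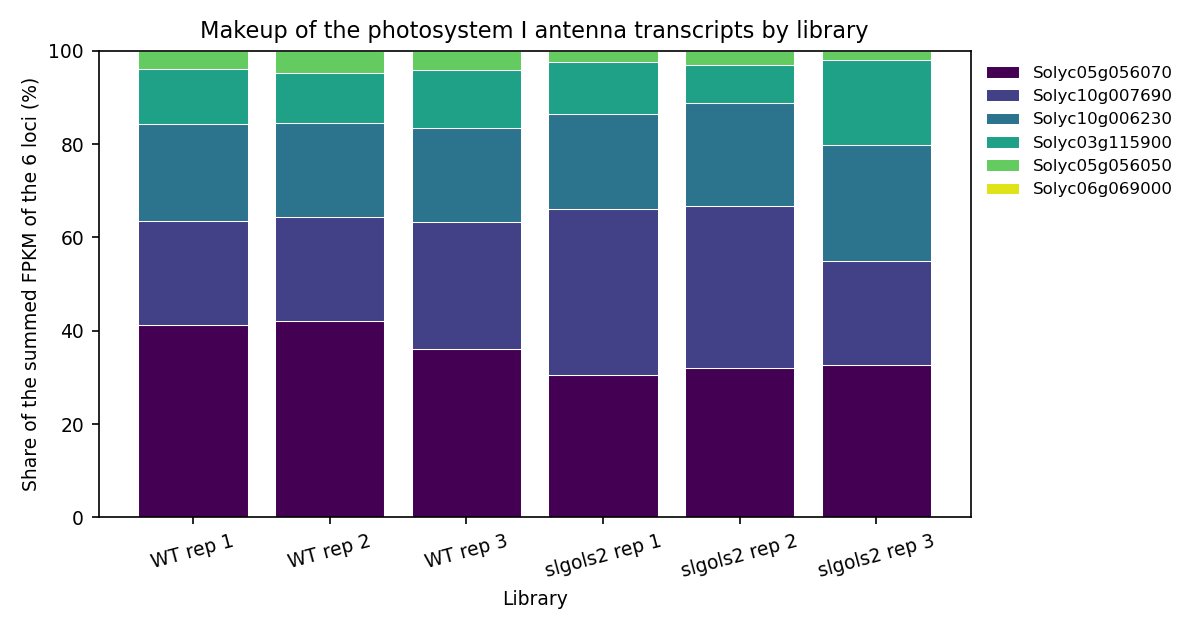
Share (%) of each of the 6 loci in their summed FPKM, 1 bar per library. FPKM is per length of the gene model, so these are not shares of fragments. The lowest block, Solyc05g056070, is between 36.0% and 42.2% in WT and between 30.4% and 32.6% in slgols2, while the Solyc10g007690 block is tallest in slgols2 replicates 1 and 2.

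Ratios between loci, which do not depend on library scaling, were compared in the same way. The FPKM of Solyc10g007690 over that of Solyc05g056070 was 0.542, 0.529 and 0.757 in WT and 1.17, 1.08 and 0.688 in slgols2 (replicates 1, 2 and 3 in each). Replicates 1 and 2 of slgols2 lay above the WT values and replicate 3 lay among them. Over Solyc03g115900 the ratio was 1.89, 2.04 and 2.18 in WT and 3.22, 4.30 and 1.22 in slgols2, and over Solyc10g006230 it was 1.08, 1.12 and 1.36 in WT and 1.75, 1.57 and 0.905 in slgols2. Against these loci replicates 1 and 2 of slgols2 again lay above WT, but replicate 3 lay below every WT value. Solyc05g056070 over Solyc05g056050 was 10.8, 9.07 and 8.93 in WT and 12.4, 10.3 and 17.4 in slgols2, so the less abundant neighbour was at its lowest against the other in slgols2 replicate 3.

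Over the 6 libraries the 10 pairs of tested loci had Pearson correlations of log2(FPKM + 1) between 0.774 and 0.993 and Spearman correlations between 0.257 and 0.943. They are descriptions over points that share libraries, with 1 library far from the rest. Over the 5 libraries without slgols2 replicate 3 Pearson's r was 0.934 between the chromosome 5 loci and 0.841 between the chromosome 10 loci. It was between -0.21 and 0.43 for a chromosome 5 locus with a chromosome 10 locus. Solyc03g115900 on chromosome 3 correlated at 0.794 with Solyc05g056070, 0.588 with Solyc05g056050, 0.659 with Solyc10g006230 and 0.283 with Solyc10g007690, so closeness did not follow the chromosome throughout.

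The other genes of photosynthesis were described by lists of loci recalled for their function, whose identifiers carry no name in the table. The photosystem I core list, of the nuclear subunits that surround the reaction centre and dock its electron carriers, had 11 of 14 loci tested. None passed the threshold (limma adjusted p of 0.295 or more), 10 had a lower and 1 a higher mean in slgols2, and the median log2 change was -0.33, against 0.0013 over all gene models tested. The same median was -0.58 for the 5 tested antenna loci. Without slgols2 replicate 3 it was 0.023 for the core list and -0.30 for the antenna loci, against -0.036 over all gene models tested. In slgols2 replicate 3, 10 of the 11 core loci lay below the lowest WT value, with a median of -1.18 relative to the WT mean, against -1.87 for the antenna loci and 0.043 for all gene models tested. Without that library 4 of the 11 core loci were lower and 7 higher in mean, and of the 5 antenna loci 3 were lower and 2 higher. The FPKM sum of the antenna loci over that of the core list was 0.456, 0.428 and 0.459 in WT and 0.529, 0.437 and 0.281 in slgols2 (replicates 1, 2 and 3 in each), so in slgols2 replicate 3 the antenna sum was low also against the core of its own photosystem.

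The photosystem II antenna lists hold the sister family, Lhcb, which feeds the other photosystem. They were split by chromosome with earlier results of these data known. Outside chromosome 2, 10 of 14 loci were tested and none passed (limma adjusted p of 0.368 or more). All 10 lay below the lowest WT value in slgols2 replicate 3, with a median of -1.21 relative to the WT mean. The median log2 change was -0.39, with 9 lower and 1 higher in mean, and 0.016 without slgols2 replicate 3, with 5 lower and 5 higher. Their medians in slgols2 replicates 1 and 2 were -0.06 and 0.03, where those of the photosystem I antenna were 0.08 and -0.45. The row of Lhcb loci on chromosome 2 (6 of 8 tested) stood elsewhere, where the medians were -2.82, -1.58 and -3.76 (slgols2 replicates 1, 2 and 3). All 6 had groups that did not overlap and 1 passed the threshold, lower in slgols2 (limma adjusted p = 0.0352). Without slgols2 replicate 3 the median of that row was -2.24 and 2 loci passed. Elsewhere, groups did not overlap at 3 of the 11 photosystem I core loci and 1 of the 10 photosystem II antenna loci outside chromosome 2. These were lower in slgols2. Of all gene models tested 19.2% had groups that did not overlap, in either direction, so neither of these counts stands out.

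Of the remaining lists none had a locus past the threshold (limma adjusted p of 0.166 or more). The list of photosystem II core, oxygen evolution and electron transport had all 5 loci tested, a median of -0.62 in slgols2 replicate 3 and a median log2 change of -0.21, or -0.15 without that library. Chlorophyll synthesis, which supplies the pigment that antenna proteins bind, had all 12 loci tested, 8 lower and 4 higher in mean, and a median of -0.79 in that library. Its median log2 change was -0.31, and -0.16 without that library, with 7 lower and 5 higher. The list of Rubisco small subunits and activase, the stromal side of photosynthesis, had 4 of 5 loci tested, 2 lower and 2 higher with and without that library, a median of 0.0031 in it, and a median log2 change of 0.090, or 0.13 without it. Of the green shoulder and chloroplast regulators 2 of 3 were tested, 1 lower and 1 higher with and without it, with median log2 changes of -0.21 and -0.27.

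**Figure D4:**
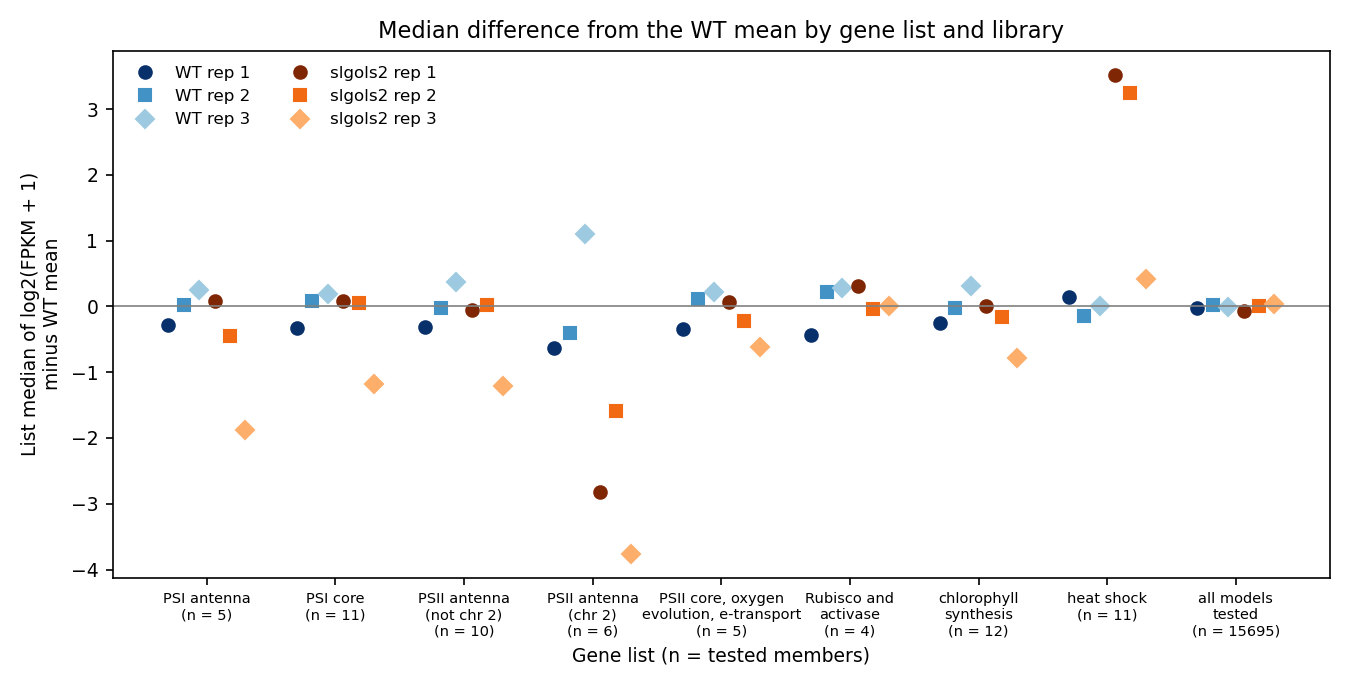
Median over the tested loci of each list of log2(FPKM + 1) minus the WT mean, for each of the 6 libraries; each point is 1 library and n is the number of loci tested. In slgols2 replicate 3 the photosystem I antenna median is -1.87, the lowest after the chromosome 2 row of photosystem II antenna loci at -3.76, while the heat shock median is 0.41 there and 3.52 and 3.24 in slgols2 replicates 1 and 2.

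Gene models were also ranked by how closely their log2(FPKM + 1) over the 6 libraries followed the mean standardized profile of the 5 tested antenna loci. An r of at least 0.9 was reached by 2.07% of the 15690 other gene models tested, by 6 of 11 photosystem I core loci, 3 of 10 photosystem II antenna loci outside chromosome 2, 3 of 5 photosystem II core and electron transport loci and 4 of 12 chlorophyll synthesis loci. It was reached by 0 of the 6 antenna loci on chromosome 2, 0 of 4 Rubisco and activase loci and 0 of 11 heat shock loci. Over the 5 libraries without slgols2 replicate 3, an alternative chosen after seeing the data, it was reached by 1.01% of the other gene models, 1 of the 11 photosystem I core loci, 0 of the 10 photosystem II antenna loci outside chromosome 2, 3 of the 5 photosystem II core and electron transport loci, 1 of the 12 chlorophyll synthesis loci and 1 of the 4 Rubisco and activase loci. Over the 6 libraries an r of -0.9 or less was found for 4.53% of the other gene models tested, whose median r was -0.10. The closest gene models were Solyc04g080700, at r = 0.997 over 6 libraries and 0.973 over the 5 without slgols2 replicate 3, and Solyc09g064930, at 0.994 and 0.948. The most opposed were Solyc12g014260, at -0.9997 and -0.997, and Solyc07g064110, at -0.995 and -0.983. These named gene models were picked by r over 6 libraries. Their r over 5 libraries used the profile standardized over 6, whereas the counts over 5 libraries used a profile standardized over those 5. Solyc04g080700 stood at 37.7, 52.6 and 56.5 FPKM in WT and 51.0, 37.7 and 12.1 FPKM in slgols2, and Solyc12g014260 at 20.5, 15.7 and 13.6 FPKM in WT and 15.8, 20.3 and 58.4 FPKM in slgols2 (replicates 1, 2 and 3 in each). With 6 points and this many gene models, close likeness is to be found by selection alone, and the sources used here give these identifiers no function.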

How the data were processed

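RNA-seq libraries of total RNA were grouped by title into 3 WT and 3 slgols2. Per the file headers, the authors deposited FPKM per gene model. The submitters' processing notes list HISAT2 2.1.0 and DESeq 1.38.3; the counter, genome build, annotation and strand setting are not given there or in the labels. All gene models with a mean of at least 1 FPKM (15695) were fitted in limma 3.58.1 (R 4.3.3) as log2(FPKM + 1) on genotype, with an intensity trend, two-sided, with Benjamini-Hochberg adjustment at 0.05 over the whole table. Fold changes on this scale understate changes of low genes. Depth, gene length and fragment numbers were recovered from the steps of the FPKM values: 98.4% of 3457 low genes gave a length within 0.01 bases of a whole number, against 49.1% at the doubled depth. The scripts were tested on simulated data. Intervals of log2 changes come from the scatter between libraries, and Poisson intervals cover counting error only. Genes to be named were the 6 loci plus the 2 gene models most like and the 2 least like them. The loci, lists and tests were chosen with earlier results of these data known, and list functions are recalled, not annotated: 0 of the 6 identifiers matched the reference.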

Additional observations from a re-analysis of the deposited data

How the results depend on the processing

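None of the 5 tested loci passed under any of the 17 alternatives, and Solyc05g056050, Solyc05g056070 and Solyc03g115900 had a lower mean in slgols2 in all 17. Solyc10g006230 and Solyc10g007690 turned with sample quality weights (log2 changes 0.012 and 0.46) and without slgols2 replicate 3. When 1 library was left out, these 2 loci ran from -0.75 to 0.078 and from -0.74 to 0.57. Solyc05g056050 then ran from -1.70 to -0.57, Solyc05g056070 from -1.26 to -0.34 and Solyc03g115900 from -0.90 to -0.30. In all 5 ranges the upper end was the fit without slgols2 replicate 3. The antenna sum differed by -319 FPKM with median-ratio scaling, and by -623 to 1.63 FPKM when libraries were left out. Over all gene models the 36 calls became 20 with a pseudocount of 0.1, 22 with 5, 55 with no filter, 15 at a mean of at least 5 FPKM, 2028 with sample quality weights, 1 with limma-voom on recovered reads, and 7 to 279 when 1 library was left out (lowest without WT replicate 1, highest without slgols2 replicate 3). A fit with replicate block passed 1 gene model and 0 antenna loci; the numbers are not shown to pair libraries, since deviations of same-numbered libraries correlated at -0.15, 0.089 and -0.165. With no filter Solyc06g069000 had a log2 change of -0.21 (limma adjusted p = 0.827). The stricter filter tests fewer gene models, as its construction implies; for the other shifts the cause was not tested. Between 8 and 57 fragments per library limit Solyc06g069000.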
